A study of Mus musculus with 12 samples.

Results

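The sugar-burning enzymes of sperm were followed in the mouse testis across adult life. The set holds 10 genes: Hk1, Aldoart1, Aldoart2, Gapdhs, Pgk2, Pgam2 and Eno4 of glycolysis, Ldhc and Pdha2, which handle its product pyruvate, and Gk2, a glycerol kinase. They were chosen by name, not by their values, from the 24516 gene symbols of the deposited table, though earlier results of these data were known. Every row carrying one of these symbols was used if the assembled transcript matched the annotated one, lay within it, shared a splice junction with it or overlapped its exons on the same strand (class codes =, c, j and o). This gave 28 of the 71967 transcripts, and their reads were summed per gene. Another 7 transcripts that carry the symbols, but lie on the opposite strand or in an intron, were left out.

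Whole testis RNA came from C57BL/6 males, an inbred strain, with no treatment and no altered gene, at 3 months (3M), 6 months (6M), 12 months (12M) and 18 months (18M) of age, with 3 mice and 3 libraries at each age. A mouse is named here by its age and number, such as 12M-3. Ribosomal RNA had been removed, and the libraries keep no strand. Reads from a gene and from a transcript on its opposite strand therefore cannot be told apart where their exons overlap. The labels do not say whether the mice of an age were littermates. Each library held 50924104 to 71803379 assigned reads (median 56236682), and the Pearson correlation of log2(CPM + 1) over 20263 genes at a mean of 1 CPM or more was 0.979 to 0.984 between mice of the same age and 0.977 to 0.984 between ages. CPM is a gene's read count scaled to the size of its library. FPKM also divides by transcript length and is the scale on which the levels of different genes are compared below. In bulk testis RNA, fewer cells of a type and less RNA per cell cannot be told apart.

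Glycolysis splits glucose into pyruvate in the cytosol, and sperm depend on it for movement because much of their tail lies far from the mitochondria. Several of its steps are run in sperm by forms found in no or few other cells, and many of these enzymes are anchored to the fibrous sheath of the tail. Pgk2, Pdha2 and Gk2 are retrogenes, copies made from spliced RNA, whose parent genes lie on the X chromosome, which is silenced during male meiosis. Aldoart1 and Aldoart2 are copies of the aldolase gene Aldoa.

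The copies still show their origin in their sequence. In GENCODE vM21, on the mm10 build that the deposited coordinates use, Pgk2, Pdha2, Gk2, Aldoart1 and Aldoart2 each have 1 exon, while Pgk1 and Pdha1 have 11, Gk has 20 and Aldoa has 9. The first 90 coding bases, from the start codon, are shown for 4 copies and their parents, because they show how far apart a read from a copy and from its parent lie. Capitals mark bases of the copy that differ from the parent.
Pgk2: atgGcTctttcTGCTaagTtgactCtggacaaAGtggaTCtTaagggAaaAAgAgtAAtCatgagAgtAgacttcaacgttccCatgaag
Pgk1: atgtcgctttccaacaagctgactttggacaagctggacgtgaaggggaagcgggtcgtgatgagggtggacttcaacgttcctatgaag
Gk2: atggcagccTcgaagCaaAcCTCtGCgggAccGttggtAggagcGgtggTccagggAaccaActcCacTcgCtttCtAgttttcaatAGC
Gk: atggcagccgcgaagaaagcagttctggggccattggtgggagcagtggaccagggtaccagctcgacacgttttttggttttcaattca
Aldoart1: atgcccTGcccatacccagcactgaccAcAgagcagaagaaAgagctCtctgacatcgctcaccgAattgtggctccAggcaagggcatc
Aldoart2: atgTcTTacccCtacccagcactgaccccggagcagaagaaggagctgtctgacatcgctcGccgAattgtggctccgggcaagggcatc
Aldoa: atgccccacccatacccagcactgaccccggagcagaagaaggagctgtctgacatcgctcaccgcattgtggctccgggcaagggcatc

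These stretches lie at chr17:40208446-40208535 on the minus strand for Pgk2, chr5:97456888-97456977 on the minus strand for Gk2, chr4:72852315-72852404 on the minus strand for Aldoart1 and chr12:55565292-55565381 on the plus strand for Aldoart2. In the parents, the same bases are spread over 2 exons in Pgk1 (chrX:106187251-106192031, plus strand) and in Gk (chrX:85761396-85776503, minus strand) and lie in 1 exon in Aldoa (chr7:126797666-126797755, minus strand). Of the 90 bases, 23 differ between Pgk2 and Pgk1, 23 between Gk2 and Gk, 8 between Aldoart1 and Aldoa and 6 between Aldoart2 and Aldoa. Over the whole aligned coding sequence, identity to the parent was 79.3% for Pgk2, 75.6% for Pdha2, 80.5% for Gk2, 94.2% for Aldoart1 and 91.6% for Aldoart2. The longest run of identical bases was 86, between Aldoart1 and Aldoa, shorter than the read length of 101 that the counts and depths in the files imply. No word of that length from the coding sequence of these enzymes occurs in a transcript of another gene, except for 3.76% of the words of Eno4, which lie in transcripts of Hspa12a.

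In FPKM, the 10 enzymes ranked between 5 and 3212 among the 24516 symbols. Ldhc, the sperm lactate dehydrogenase, which turns pyruvate into lactate and back, ranked 5 by mean FPKM, and Gapdhs, the sperm glyceraldehyde-3-phosphate dehydrogenase, ranked 17. The order of the mean levels was Ldhc (2075 FPKM), Gapdhs (1126), Pgam2 (600.3), Pgk2 (526), Hk1 (439), Gk2 (258), Aldoart2 (226), Aldoart1 (63.6), Pdha2 (28.9) and Eno4 (24.1). Ldhc was above Gapdhs, Gapdhs above Pgam2, Hk1 above Gk2 and Aldoart2 above Aldoart1 in 12 of 12 libraries, with no overlap of their ranges. Pgam2 was also above Pgk2 in 12 of 12 libraries without overlap, though their means differed by only 1.14 times. Pgk2 was above Hk1 in 10 libraries and Gk2 above Aldoart2 in 11, and both pairs of ranges overlapped. Pdha2 and Eno4 were not separated, as Pdha2 was the higher in 5 of 12 libraries. Together the 10 genes took 0.860% to 0.996% of all reads, and Ldhc alone was 38.7% of their summed FPKM.

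**Figure D1:**
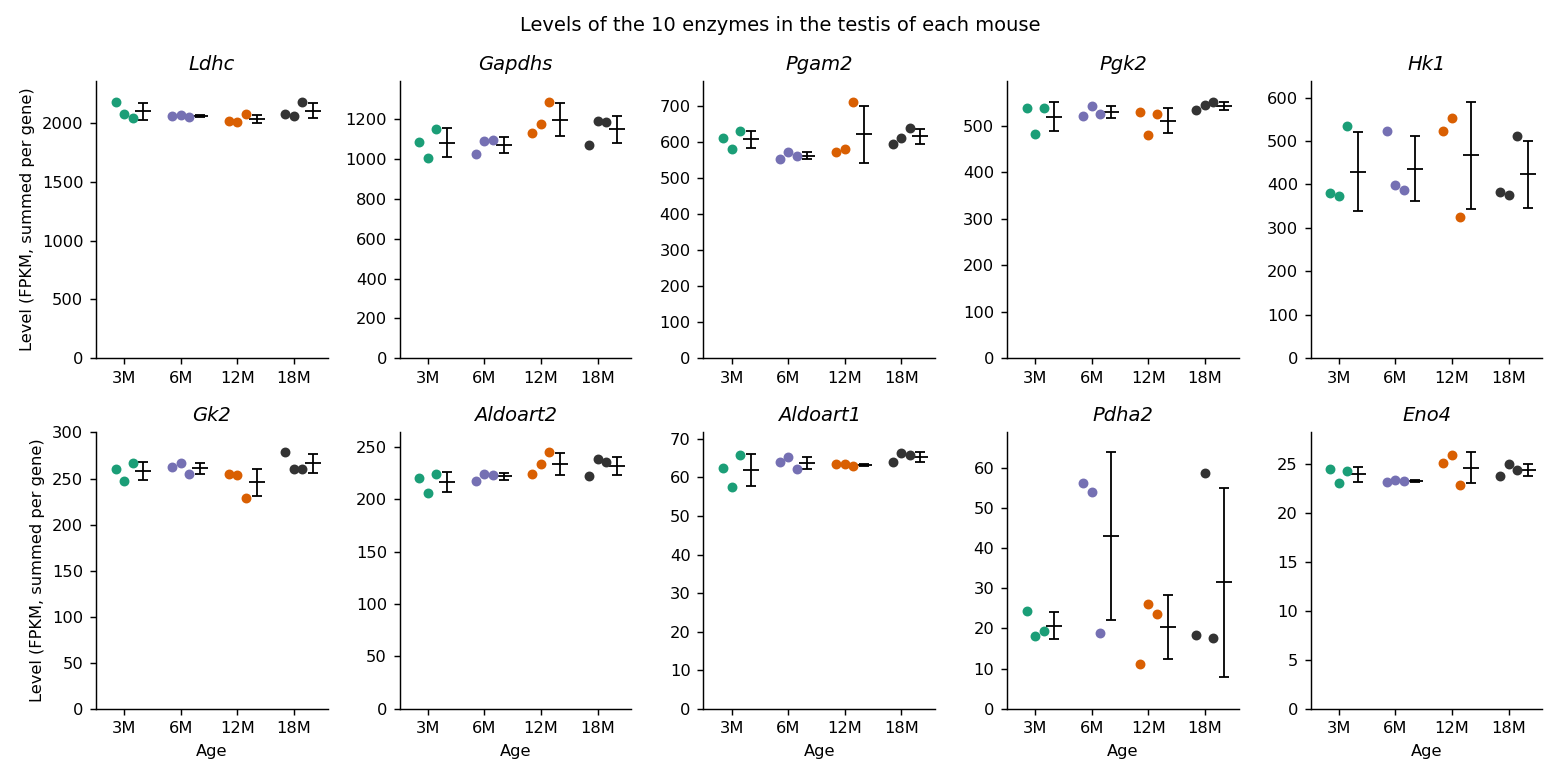
Levels in FPKM of each enzyme in the 12 mice (points, 3 per age) with the mean and SD of each age (bar at the right of each group), each axis starting at 0. Ldhc stays between 2007 and 2184 FPKM, while Hk1 and Pdha2 fall into a high and a low set of libraries that does not follow age.

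None of the 10 enzymes was called as changed with age in any of the 5 tests. The tests were the slope on age over all 12 libraries and the comparisons of 3M with 18M, 3M with 6M, 6M with 12M and 12M with 18M, by edgeR's quasi-likelihood test with Benjamini-Hochberg adjustment over all genes and loci (called at an adjusted p of 0.05 or less). Calls were rare in the whole table, at 0.171% of 25204 genes and loci for the slope and 0.0650% of 24605 for 3M against 18M. For the steps between ages they were 0.0733%, 0.0407% and 0.0203%. Against shares this low, 0 of 10 shows nothing particular to the enzymes, and does not show that their levels were the same at all ages. Without adjustment, a p of 0.05 or less was found for 1 enzyme in the slope (15.4% of all genes and loci), 0 from 3M to 18M (12.0%), 2 from 3M to 6M (3.94%), 1 from 6M to 12M (7.49%) and 0 from 12M to 18M (3.56%). Of the 28 single transcripts, 25 passed the read filter for the slope and 22 from 3M to 18M, the rest being spliced models of Pgk2 and Pdha2. The filter requires reads in several libraries: MSTRG.9060.1, untested from 3M to 18M, held up to 47.9% of Pgk2 reads in a library. Of those tested, 0 were called in the slope (background 0.0103%) and 0 from 3M to 18M (0.108%), and without adjustment 2 in the slope (7.15%) and 0 from 3M to 18M (5.4%) had such a p. DESeq2 called 0 of the 10 in each test too. Over all genes and loci it called 559 of 29652 for the slope and 298 of 29010 from 3M to 18M. For the steps between ages it called 110 of 28975, 125 of 29021 and 55 of 29062.

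The precision differed between the enzymes. From 3M to 18M, read counts of 8 of them had 95% intervals between a fall of 6.93% and a rise of 19.7%. Hk1 and Pdha2 had far wider ones, from -26.9% to 33.2% and from -32.5% to 288%. The median log2 change of the 10 was 0.06 from 3M to 18M, against 0.01 over all genes and loci tested. The median slope was 0.0038 log2 units per month against 0.00017. The 5 tests share libraries, so their values are not independent.

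**Figure D2:**
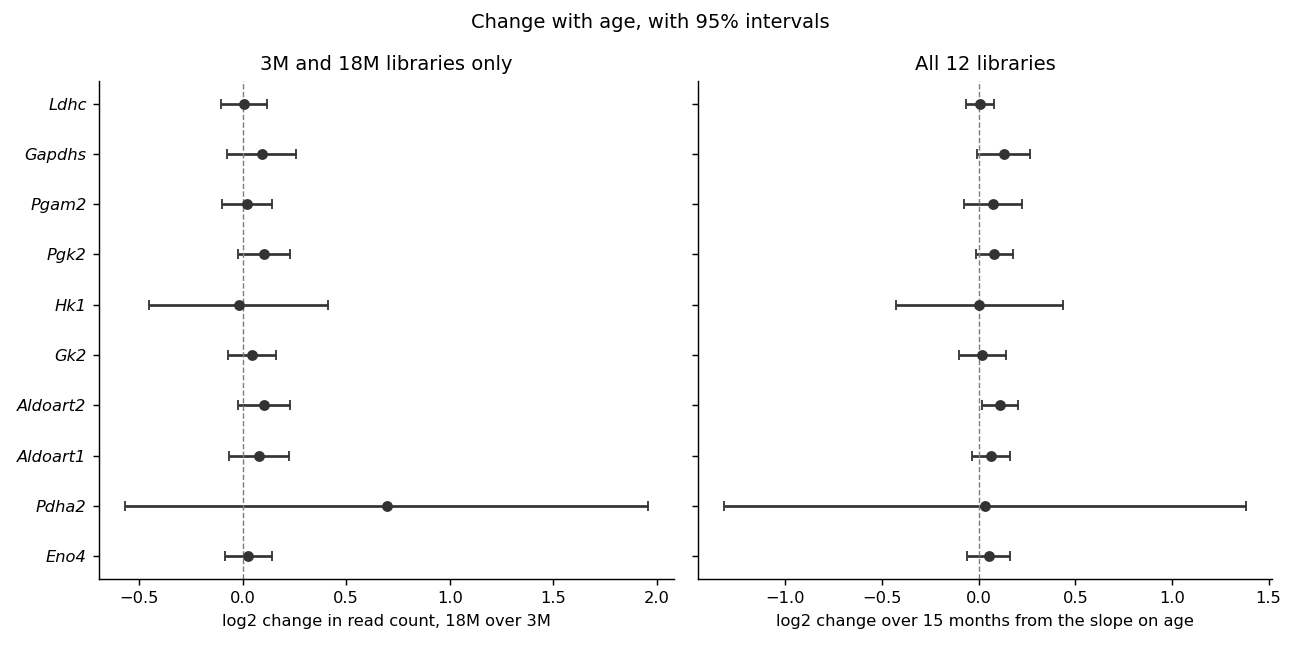
Log2 change in read count of each enzyme from 3M to 18M (left, 6 libraries) and over 15 months from the slope on age (right, 12 libraries), with 95% intervals as bars and 0 as a dashed line. All intervals reach over 0 except that of Aldoart2 in the slope, and those of Hk1 and Pdha2 are the widest.

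Hk1, hexokinase, adds the first phosphate to glucose, and a form with its own first exons is known from spermatogenic cells. Its 5 transcripts lie on the minus strand at chr10:62268855-62379908. FPKM was 380.2, 374 and 535 in the 3M mice, 524, 398 and 388 at 6M, 522, 554 and 325 at 12M and 383, 375 and 512 at 18M. One set of 5 libraries (3M-3, 6M-1, 12M-1, 12M-2 and 18M-3) was high and the other 7 low at every age, so all ages overlapped. In CPM, the high set held 2241 to 2459.7 and the low set 1400.3 to 1745. From 3M to 18M the log2 change was -0.02 ± 0.18 (SE, n = 3 and 3; edgeR adjusted p = 0.973).

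The split of Hk1 lay in its last exon, which all 5 transcripts share. That exon is 1202 bases long, at chr10:62268855-62270056, and 1054 of them follow the stop codon. In the deposited assemblies, its depth was 0.702 to 0.894 of the mean of the 16 other shared exons in the 5 high libraries. In the 7 low ones it was 0.0156 to 0.0229. Within 3M, the depth of the last exon was 50.4, 58.9 and 2776, while the other shared exons had 3229, 3427 and 3821. The same ratio stayed between 0.344 and 0.440 in Ldhc, 0.621 and 0.769 in Gapdhs and 0.703 and 0.848 in Pgam2, so those genes showed no such split. Without the last exon, a reckoning added after the split was seen, Hk1 held 1653, 1615 and 1774 CPM at 3M, 1754, 1730.2 and 1657 at 6M, 1691, 1849.6 and 1386 at 12M and 1659, 1626 and 1600.1 at 18M. Its coefficient of variation over the 12 libraries was 6.90%, against 19.3% with all exons. The 3M to 18M log2 change was then -0.04 ± 0.05 (edgeR adjusted p = 0.748), with an interval from -10.2% to 5.02%. The library 12M-3 was the lowest with and without the last exon. What sets the depth of the last exon was not tested.

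Of the first exons of Hk1, the farthest upstream was the deepest. That at chr10:62379815-62379908, used by 3 transcripts, had a median depth of 277 per transcript and library, not summed over the 3. That at chr10:62362150-62362285, used by 1, had 142. The first exon of NM_001146100, at chr10:62340013-62340421, had 2.23, although 11.6% of Hk1 reads were assigned to that transcript. The first exon at chr10:62362150-62362285 overlaps a transcript assembled on the opposite strand, so its depth is uncertain.

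**Figure D3:**
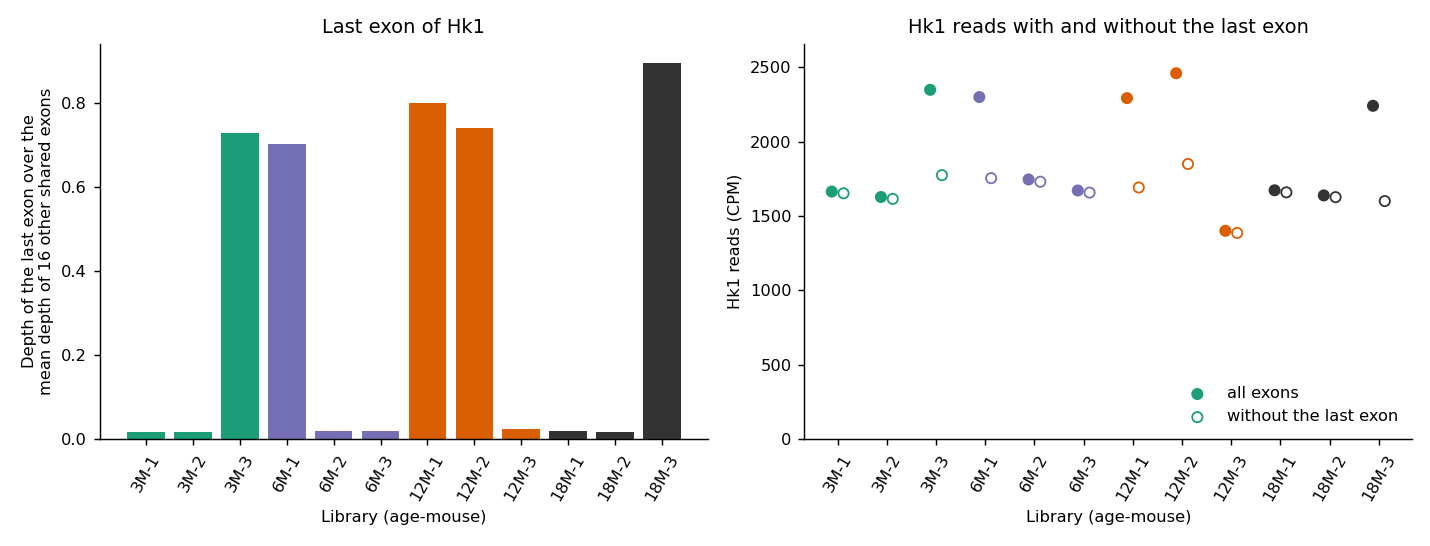
Depth of the last exon of Hk1 over the mean depth of the 16 other exons shared by its 5 transcripts (left, bars) and Hk1 CPM with all exons (filled points) and without the last exon (open points) in each library, coloured by age. The 5 libraries with a ratio over 0.7 are those with 2241 to 2459.7 CPM.

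Aldoart1 and Aldoart2 are sperm aldolases, which split the 6-carbon sugar. Aldoart2 (NM_001277340, chr12:55565205-55566896, plus strand, 1 exon) was at 221, 206 and 224 FPKM at 3M, 218, 224 and 224 at 6M, 224, 234 and 245 at 12M and 223, 239 and 235 at 18M. The 3 highest values were at 12M and 18M, and in CPM every 12M mouse lay above every 6M mouse. Its slope was 0.0073 ± 0.0029 log2 units per month (SE), or 7.88% over 15 months with a 95% interval from 1.16% to 15% (edgeR adjusted p = 0.264), the 1 enzyme with an unadjusted p of 0.05 or less in that test. Over 24 alternatives the adjusted p lay between 0.145 and 0.464. Aldoart1 (NM_001199270, chr4:72850583-72852634, minus strand, 1 exon) stayed between 57.5 and 66.2 FPKM, with a 3M to 18M log2 change of 0.08 ± 0.06 (adjusted p = 0.617).

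Gapdhs, which makes the first NADH of the pathway, was at 1084, 1007 and 1153 FPKM at 3M, 1027, 1093 and 1097 at 6M, 1133, 1174 and 1289 at 12M and 1073, 1190.2 and 1185 at 18M. The highest mouse was 12M-3 and the lowest 3M-2. From 6M to 12M, its CPM did not overlap (1617 to 1715 against 1784 to 1991), and the log2 change was 0.17 ± 0.06 (edgeR adjusted p = 0.650), the 1 unadjusted p of 0.05 or less in that step. From 3M to 18M the ages overlapped, with a log2 change of 0.09 ± 0.07 (adjusted p = 0.625). Reads were shared between NM_008085 (52.3%) and NM_001290631 (47.0%), which begin at different first exons on chr7:30729779-30743681, minus strand. The slope of NM_008085 was 0.0145 ± 0.0059 log2 units per month (transcript-level edgeR adjusted p = 0.652), and the division of reads between the forms is the assembler's estimate.

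Pgam2, phosphoglycerate mutase, is shared by sperm and skeletal muscle. It was at 609, 580.1 and 629 FPKM at 3M, 552, 571 and 559 at 6M, 571, 579 and 711 at 12M and 594, 611 and 638 at 18M. The 6M mice were low and alike, below all 3M mice in CPM, and 12M-3 stood high. The 3M to 6M log2 change was -0.12 ± 0.04 (edgeR adjusted p = 0.990), and from 3M to 18M it was 0.02 ± 0.05 (adjusted p = 0.887). Skeletal muscle markers were near 0 in every library: 7 of 8 had a mean under 1 FPKM, and the 8 summed to 4.86 to 6.21 FPKM.

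The mouse 12M-3, highest for Gapdhs, Pgam2 and Aldoart2 and lowest for Hk1, Gk2 and Eno4, also had the highest summed level of 8 elongating spermatid markers, at 34634 FPKM against 23436 to 30739 in the other 11 libraries. None of these 8 was called in a test, and their slopes on age lay between 0.009 and 0.014 log2 units per month. The 8 round spermatid markers summed to 805 to 960.2 FPKM, with slopes between 0.001 and 0.016. From 3M to 18M the edgeR unadjusted p was 0.018 for Oaz3, 0.025 for Spem1 and 0.037 for Gsg1 of the elongating markers. Of the round ones it was 0.0064 for Acrv1, 0.0052 for Spaca1 and 0.0074 for Izumo1. These genes all rose, and were named after their values were seen. The others had a p above 0.05, and only Acr fell. Of all genes and loci, 12.0% had a p of 0.05 or less, and none of these markers passed the adjustment. In 12M-3, the depth of the last exon over that of the other shared exons was also the highest of the 12 libraries in Gapdhs (0.769), Ldhc (0.440) and Pgam2 (0.848). The part of these markers and of this ratio in the enzyme levels was not tested.

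Pgk2, phosphoglycerate kinase, makes the first ATP of the pathway and lies at chr17:40207018-40208609 on the minus strand. Its gene sum was even, at 538, 482 and 538 FPKM at 3M, 520.0, 543 and 525 at 6M, 528, 479.7 and 525 at 12M and 534, 544 and 551 at 18M. In CPM the 18M mice (924 to 974) all lay above the 3M mice (829 to 919), which made Pgk2 the 1 enzyme of 10 with no overlap between those ages, where 19.7% of all genes and loci did not overlap. The log2 change was 0.10 ± 0.05 (edgeR adjusted p = 0.467; 19 alternatives 0.415 to 0.795). Without overlap in CPM were also 1 enzyme from 3M to 6M (Pgam2, background 9.54%), 3 from 6M to 12M (Gapdhs, Aldoart2 and Pgam2, background 15%) and 3 from 12M to 18M (Ldhc, Pgk2 and Gk2, background 9.06%). In FPKM, the ages did overlap for Pgk2 from 3M to 18M, for Aldoart2 from 6M to 12M and for Ldhc from 12M to 18M.

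The transcripts of Pgk2 were far less even than their sum. The annotated NM_031190 held 47.9% to 100% of its reads, and 3 assembled spliced models, which join its exon to exons downstream as far as chr17:40174872, held the rest. The annotated level was 407, 544 and 274 FPKM at 18M against 538, 414 and 538 at 3M, so the annotated row alone gave a 3M to 18M log2 change of -0.29, the opposite direction of the sum. In 18M-3, 36457 of the reads given to spliced models lay on the exon of Pgk2 itself and 3.03 on the exons joined to it. The depth of any joined exon was at most 3.09 in all 12 libraries.

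Eno4, a testis enolase, is the lowest of the glycolytic enzymes here, at 22.9 to 26.0 FPKM (chr19:58943425-58971421, plus strand). It varied with a coefficient of 4.60% in CPM and changed by 0.03 ± 0.05 log2 units from 3M to 18M (adjusted p = 0.853).

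Ldhc (NM_013580, chr7:46861263-46878142, plus strand) was at 2182, 2074 and 2045 FPKM at 3M, 2060.5, 2066 and 2053 at 6M, 2019, 2007 and 2074 at 12M and 2079, 2059 and 2184 at 18M. All values lay within 1.09 times of each other. Its coefficient of variation in CPM was 2.62%, and only 0.922% of the 10736 genes and loci at a mean of 10 CPM or more had a lower one, where the median was 7.52%. The 3M to 18M log2 change was 0.01 ± 0.05 (edgeR adjusted p = 0.961), with an interval from -6.93% to 8.56%.

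Pdha2 is the catalytic alpha subunit of pyruvate dehydrogenase in spermatogenic cells, which passes pyruvate on to the mitochondrial cycle. It lies at chr3:141210004-141212355 on the minus strand. Its level was 24.4, 18.1 and 19.4 FPKM at 3M, 56.1, 54.0 and 18.9 at 6M, 11.2, 26.2 and 23.5 at 12M and 18.3, 58.7 and 17.6 at 18M. The libraries 6M-1, 6M-2 and 18M-2 stood high and the other 9 low, and 6M and 18M each held both kinds. From 3M to 6M the log2 change was 1.18 ± 0.44 (edgeR adjusted p = 0.990), and without 6M-3 it was 1.57 ± 0.12 (adjusted p = 0.0298). Over 19 alternatives the adjusted p lay between 0.0298 and 1. Pdha2 and Pgam2 were the enzymes with an unadjusted p of 0.05 or less in that step. From 3M to 18M it was 0.69 ± 0.53 (adjusted p = 0.618), which without 18M-2 became -0.25. Its coefficient of variation, 65.9%, was above that of 99.1% of the genes and loci at 10 CPM or more.

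As with Pgk2, reads of Pdha2 were divided between its annotated transcript, NM_008811 (35.2% to 99.3%), and 7 assembled spliced models that reach as far as chr3:141176328. In the 3 high libraries the annotated transcript held 52.3 to 57.3 FPKM and the models 0.672 to 1.66 FPKM. In 3M-1 the annotated transcript held 7.29 and the models 17.1 FPKM. Joined exons had a depth of at most 7.45. Transcripts on the opposite strand were also assembled here. MSTRG.13534.1 and MSTRG.13534.2 lay within the exon of Pdha2, with 249 and 53 reads over the 12 libraries. MSTRG.13535.1 held 2861 reads, but met that exon only at chr3:141211923-141212022. Which part of the difference came from the transcript models was not tested.

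**Figure D4:**
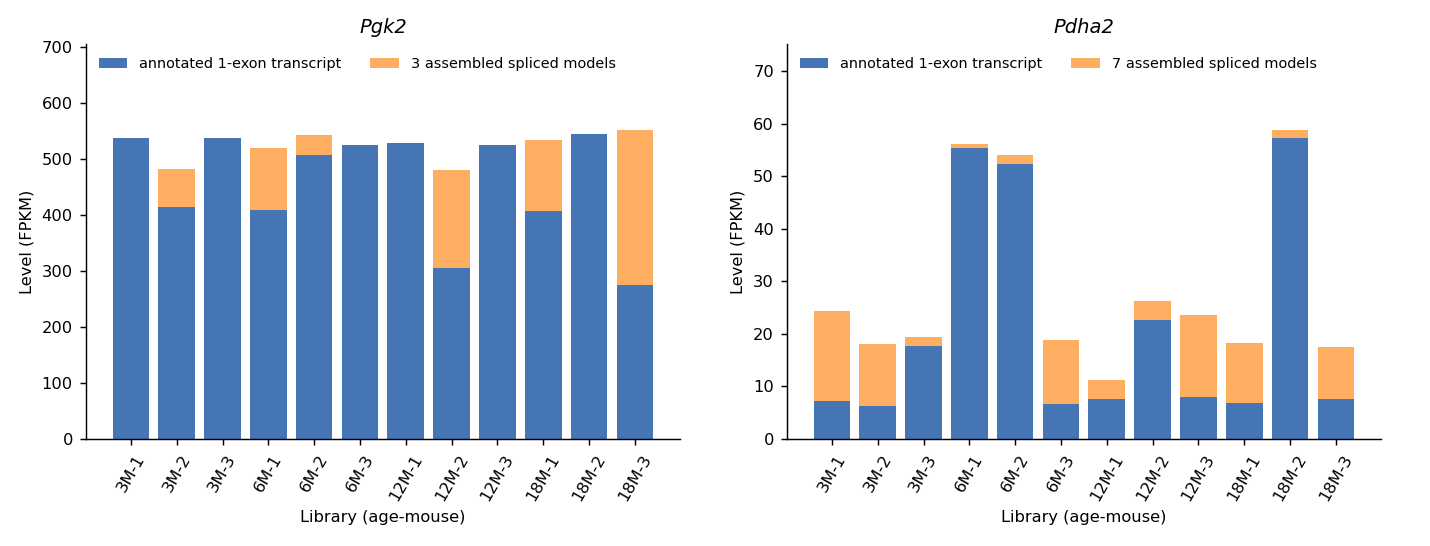
FPKM of Pgk2 and Pdha2 in each library, divided into the annotated transcript of 1 exon (blue) and the assembled spliced models that include it (orange, 3 for Pgk2 and 7 for Pdha2). The whole bar for Pgk2 stays between 479.7 and 551 FPKM as its parts trade places, while the bar for Pdha2 is tall in 6M-1, 6M-2 and 18M-2 only.

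Gk2 phosphorylates glycerol, which lets it enter glycolysis (NM_010294, chr5:97455161-97457008, minus strand, 1 exon). It ranged from 229 to 279 FPKM, with 12M-3 lowest and 18M-1 highest, and its 3M to 18M log2 change was 0.05 ± 0.05 (edgeR adjusted p = 0.730).

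Each enzyme except Hk1 was also set against its counterpart used in other tissues, as a ratio of FPKM within a library. Gk2 was 643 to 1348 times its X-linked parent Gk, which was itself at 0.170 to 0.402 FPKM. Pgk2 was 66.3 to 94.1 times Pgk1, Gapdhs 43.4 to 70.2 times Gapdh, Pgam2 27.7 to 46.5 times Pgam1 and Pdha2 8.45 to 36.1 times Pdha1. Ldhc was 4.30 to 4.71 times Ldha, the most even of the 9 ratios. Aldolase and enolase differed from this. Aldoart2 was 1.21 ± 0.03 times Aldoa at 3M and 1.33 ± 0.16 times at 18M (SD, n = 3 each), with 18M-3 the highest. The log2 change of that ratio, 0.12, lay between 0.03 and 0.19 with each library left out. Aldoart1 was 0.311 to 0.420 of Aldoa, and Eno4 was 0.112 to 0.126 of Eno1. None of the 9 ratios separated 3M from 18M (two-sided exact permutation test, p from 0.3 to 0.9, Benjamini-Hochberg adjusted 0.9 in each), and 3 mice against 3 cannot give a p below 0.1. Of the counterparts, Ldha (463 FPKM), lactate dehydrogenase A, and Eno1 (204 FPKM), the common enolase, were the highest.

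**Figure D5:**
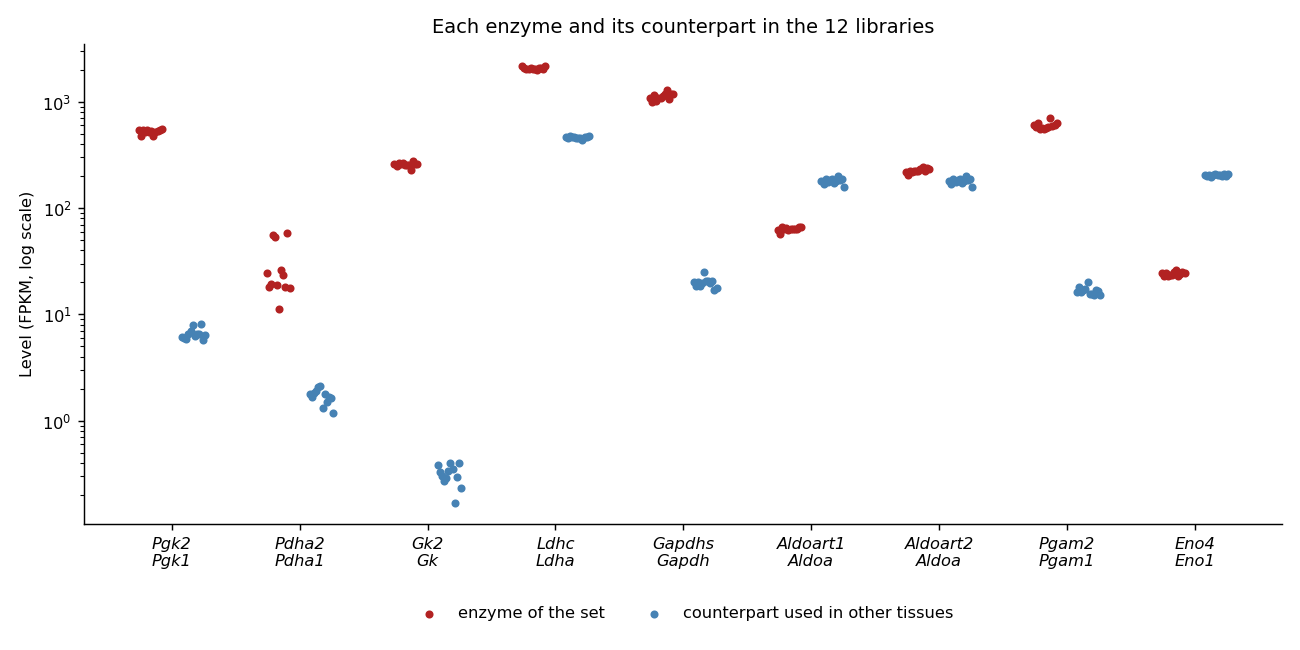
FPKM of each enzyme (red) and its counterpart (blue) in the 12 libraries, on a log axis. The enzymes of the set are the higher ones in 7 of the 9 pairs, and Aldoart1 and Eno4 lie below Aldoa and Eno1.

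The partners of these enzymes gave no call either. Of the counterparts, 15 of 16 could be tested and 0 were called in any of the 5 tests, though 2 had an unadjusted p of 0.05 or less in the slope (background 15.4%), with a median 3M to 18M log2 change of 0.01. There were also 0 calls among 15 of 17 other glycolysis genes (median -0.03), led by Ldhal6b (376 FPKM), a lactate dehydrogenase-like gene, and Gpi1 (185), which makes fructose phosphate. There were 0 among 14 genes of pyruvate dehydrogenase and the pyruvate carrier (-0.11), led by the carrier subunit Mpc2 (180.2) and Pdhb (85.7), the beta partner of Pdha2. There were 0 among 11 glycerol genes (-0.02), led by the lipase Lipe (119 FPKM) and the glycerol phosphate dehydrogenase Gpd2 (105 FPKM), and among 12 genes of sugar and lactate transport (-0.13), led by Bsg (318 FPKM), the partner of lactate carriers, and the glucose carrier Slc2a3 (300.0 FPKM). The 12 genes of the fibrous sheath and tail, led by Smcp (2062 FPKM) and Odf2 (1697 FPKM), had a median of 0.15, and 7 of them had an unadjusted p of 0.05 or less from 3M to 18M, where 12.0% of all genes and loci did, and 0 passed the adjustment. Tpi1, triose phosphate isomerase, named here after its values were seen, ranged from 29.5 to 203 FPKM, with 3M-2 and 6M-2 the lowest at 75.2 and 29.5.

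The testis identity of the libraries was clear from germ cell markers. In the slope, 2 of 8 Leydig cell markers, Cyp17a1 and Cyp11a1, both steroid-making enzymes, were called as falling with age. Cyp17a1 fell by 0.10 log2 units per month (edgeR adjusted p = 0.000125) and Cyp11a1 by 0.11 (adjusted p = 0.0053). From 6M to 12M Cyp17a1 was also called as falling, with a log2 change of -0.68 (edgeR adjusted p = 0.036). Cyp11a1 changed by -0.86 in that step and was not called (adjusted p = 0.062). From 3M to 18M neither was called (edgeR adjusted p = 0.073 and 0.300). The rest of the 8, also not called, had log2 changes from -1.27 to 0.28 there, mostly below 0. The summed Leydig markers ranged from 704 FPKM in 18M-3 to 1717 in 6M-3. That library also had the highest sum of Sertoli markers, 595 FPKM against 446 to 484 in the others, and the highest Gapdh (25.3 FPKM). Spermatocyte markers summed to 446 to 484 FPKM, spermatogonia markers to 35.6 to 41.7, myoid and vessel markers to 21.4 to 28.9, macrophage and lymphocyte markers to 6.40 to 12.1 and red blood cell markers to 21.4 to 68.0. Epididymis and fat markers summed to 6.56 to 9.08 FPKM, with 1 of 6 at 0.

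Between libraries, the enzymes shared little. Over the 45 pairs, Pearson correlations of log2(CPM + 1) across the 12 libraries ran from -0.45 to 0.94 with a median of 0.20, and all points share the scaling of their library. Gapdhs and Aldoart2 had the highest (0.94), then Pgk2 and Aldoart1 (0.78), and Pgam2 and Gk2 the lowest (-0.45). The genes outside the set whose pattern was most like the mean pattern of the 10 were Crisp2 (r = 0.89), a sperm protein, H2afv (0.87) and Zpr1 (0.86), out of 9693 genes compared.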

How the data were processed

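The authors aligned paired-end reads with HISAT2 to mm10, assembled and merged transcripts with StringTie 1.3.3b and classed them against the annotation. Their deposited table holds, per transcript and library, an estimated count, made from depth, transcript length and read length and rounded up, and an FPKM, with no scaling between libraries. Exon depth (read coverage) came from the deposited assemblies. Counts, used without further rounding, were summed per symbol over classes =, c, j and o, and other rows per locus.

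Tests used edgeR 4.0.16 in R 4.3.3 (TMM, filterByExpr, quasi-likelihood F-test, Benjamini-Hochberg adjustment). Pairwise fits held the libraries of both ages, and the slope all 12. CPM used the same scaling. A read length of 101 reproduced 334 of 336 counts. Coding sequences came from GENCODE vM21. Python 3.11.15, numpy 2.4.6, pandas 2.3.3, scipy 1.17.1 and matplotlib 3.10.9 served for the rest.

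Alternatives were library size only, DESeq2 1.42.0 and its size factors, other filters (none, or a mean of 1 CPM), other classes, limma 3.58.1 on log2(FPKM + 0.001, 0.1 or 1), all 12 libraries in a fit, a log2 minimum of 1, the mouse number as a block, and each library left out. Hk1 without its last exon was added after seeing the data. The tests were first tried on simulated counts with known changes and the same spread setting for every gene. Of 1.5-fold changes, 0% were recovered for the slope and 1.5% from 3M to 18M. Of 2-fold changes these were 38.5% and 55%, and of 4-fold changes 100% in both. The real spread differed between the enzymes, with an SE from 3M to 18M of 0.05 log2 units for Ldhc and 0.53 for Pdha2. These shares therefore do not say how large a change could be called in each enzyme.

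Members and lists were chosen with earlier results of these data known. Named are all members, from each list the called genes or otherwise the 2 with the highest mean FPKM, and the 3 most alike genes at 10 CPM or more. Gyk is listed as Gk and Hbb-bt as Hbb-b2.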

Additional observations from a re-analysis of the deposited data

Results flagged for a closer look

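The reads of 7 transcripts that carry a member's symbol stood outside the comparisons, and each total over the 12 libraries was above the 3 reads that a count of 0 allows. At Gapdhs, on the opposite strand, MSTRG.18090.3 held 8689 reads (500 to 1005 in every library), MSTRG.18090.2 held 742, all from 2 libraries, and MSTRG.18090.4 held 305. At Hk1, MSTRG.1642.1 held 2859 reads, 200 to 280 in every library, and it overlaps a first exon of Hk1. At Pdha2, on the opposite strand, MSTRG.13535.1 held 2861 reads (192 to 327 per library), MSTRG.13534.1 held 249 and MSTRG.13534.2 held 53, all from 1 library. Without strand, reads from the parts that overlap an exon of the gene cannot be told apart from those of the gene.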

How the results depend on the processing

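With every alternative, 0 of the 10 enzymes were called, except that Pdha2 was called from 3M to 6M without 6M replicate 3, and except where unadjusted p-values were used, which gave 1 in the slope, 2 from 3M to 6M, 1 from 6M to 12M and 2 transcripts in the slope. With each library left out, 0 to 1 were called from 3M to 6M. Of the single-gene values, 933 kept their direction and side of the threshold and 66 changed direction.

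Using annotated transcripts alone (class =), log2 slopes per month were -0.019 for Pgk2, -0.0021 for Eno4 and -0.0013 for Hk1. From 3M to 18M they gave -0.00045 for Ldhc, -0.29 for Pgk2, -0.057 for Eno4 and -0.15 for the ratio Eno4/Eno1. They gave -0.060 for Pgk2 from 3M to 6M, and -0.15 for Pgk2 and 0.039 for Eno4 from 12M to 18M. Except for Ldhc, which has 1 transcript, these values leave out assembled models of the gene. With reads over mean length, Pgk2/Pgk1 was 0.046. With FPKM and a pseudocount of 0.001, 0.1 or 1, the slope was -0.000142, -0.000141 or -0.000140 for Hk1 and -0.0040, -0.0039 or -0.0036 for Pdha2. Without its last exon, Hk1 had a slope of -0.0042 and a 6M to 12M change of -0.062. The causes of the other reversals were not tested.

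Values that crossed 0 with a library left out are given first. The slope ranged over -0.0015 to 0.0021 for Ldhc, -0.0067 to 0.0076 for Hk1, -0.059 to 0.021 for Pdha2 and -0.0012 to 0.0027 for Gk2. From 3M to 18M the ranges were -0.022 to 0.034 for Ldhc, -0.011 to 0.053 for Pgam2, -0.0027 to 0.047 for Eno4, -0.18 to 0.17 for Hk1 and -0.25 to 1.01 for Pdha2. From 3M to 6M they were -0.072 to 0.030 for Gapdhs, -0.023 to 0.048 for Pgk2, -0.020 to 0.083 for Aldoart1, -0.012 to 0.053 for Aldoart2, -0.14 to 0.21 for Hk1 and -0.026 to 0.035 for Gk2. From 6M to 12M they were -0.033 to 0.016 for Aldoart1 and -0.045 to 0.32 for Hk1. From 12M to 18M they were -0.044 to 0.020 for Aldoart2, -0.071 to 0.087 for Pgam2, -0.074 to 0.034 for Eno4, -0.35 to 0.0081 for Hk1 and -0.25 to 1.01 for Pdha2. The log2 ratios ranged over -0.20 to 0.056 for Pgk2/Pgk1, -0.038 to 0.015 for Ldhc/Ldha, -0.0098 to 0.13 for Pgam2/Pgam1 and -0.031 to 0.032 for Eno4/Eno1. Without crossing 0, values from 3M to 18M moved over 0.041 to 0.14 for Gapdhs, 0.025 to 0.13 for Aldoart1, 0.064 to 0.14 for Aldoart2, 0.057 to 0.13 for Pgk2 and 0.013 to 0.074 for Gk2. The ratios moved over 0.016 to 0.41 for Gk2/Gk, 0.013 to 0.15 for Aldoart1/Aldoa, 0.094 to 0.32 for Gapdhs/Gapdh and 0.13 to 0.99 for Pdha2/Pdha1.

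Mouse numbers showed no clear pairing of the mice: over 18 same-numbered pairs r was -0.167 to 0.0972, against -0.118 to 0.140 for other numbers, and 5 libraries were closest to their own number. Whether mice of the same number were related or handled together was not tested, and the labels do not say. With the number as a block, the slope of Pdha2 was -0.010 and no enzyme was called. Over all genes, calls were then 22 for the slope, 0 from 3M to 18M and 2, 2 and 1 for the steps between ages, against 43, 16, 18, 10 and 5 without it, and 3 and 0 transcripts against 6 and 59.

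DESeq2 called 559, 298, 110, 125 and 55 genes in the same order, and 1075 and 2087 transcripts. Class = alone gave 9 for the slope, 40 from 3M to 18M and 17 from 6M to 12M. FPKM with 0.001 or 0.1 gave 28 or 22 from 6M to 12M and 14 or 10 from 12M to 18M. All 12 libraries in the fit gave 6 from 3M to 6M, 1 from 12M to 18M and 18 transcripts from 3M to 18M. Other filters gave 3 or 11 transcripts for the slope, and no filter 22 from 3M to 18M. With a library left out, calls were 13 to 116, 18 to 34, 20 to 41, 11 to 24 and 7 to 22, and transcripts called were 3 to 8 for the slope and 8 to 25 from 3M to 18M. At these depths, Pdha2 (1447 to 7706 reads per library) and Eno4 (3239 to 4809) rest on the fewest reads.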
